A study of Homo sapiens with 6 samples.

Results

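The genes described here encode the receptors for leptin and adiponectin and their closest partners, read in RL95-2 cells with and without medium conditioned by fat cells. The 8 genes were chosen by name: LEPR, LEPROT and LEPROTL1 on the leptin side, ADIPOR1, ADIPOR2 and CDH13 as adiponectin receptors, and APPL1 and APPL2 as adaptors. All 8 are among the 23228 genes of the count tables, 7 had reads, and the same 7 passed edgeR's filter on low counts and were tested. RL95-2 is an established human endometrial carcinoma line. The 3 control libraries came from cells kept in serum-free RPMI and DMEM in equal parts, and the 3 ADP-CM libraries from cells kept for 24 h in serum-free RPMI and ADP-CM in equal parts. ADP-CM is DMEM conditioned by mature adipocytes that were isolated from human visceral fat, and the sources used here do not give the number of donors. The labels do not say whether the libraries of a group came from separate cultures, so p-values measure only the spread between these libraries, which may be technical.

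Leptin and adiponectin are hormones that fat cells secrete. Leptin binds LEPR, a single-pass cytokine receptor related to gp130, which signals through the kinase JAK2 to STAT3 and is limited by SOCS3. LEPROT and LEPROTL1 are small membrane proteins of endosomes and the Golgi that lower the amount of LEPR at the cell surface. Adiponectin binds ADIPOR1 and ADIPOR2, membrane proteins of the PAQR family whose signaling reaches AMPK and PPARA. Its multimers also bind T-cadherin, the product of CDH13, a cadherin held by a lipid anchor with no cytoplasmic tail. APPL1 and APPL2 are adaptors of early endosomes, and APPL1 binds the cytoplasmic part of the adiponectin receptors.

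Between 16262614 and 18363033 reads per library lay on genes, and 1 read was worth 0.0544 to 0.0616 CPM, the TMM-scaled count per 1e+06 reads on genes that is used below. No replicates of a group were alike enough to be a single library deposited again. Epithelial markers were abundant, with KRT8 at 1843 ± 14.0 CPM in control (SD, n = 3) and 11 of 12 tested, the exception being CLDN3 with 4 to 17 reads. Their summed level was 5887 to 6042 CPM in control and 5196 to 5298 CPM in ADP-CM. At the limit used below (adjusted p under 0.01 in edgeR) 2 of the markers were higher and 5 lower in ADP-CM. Of all tested genes 13.5% were higher and 13% lower at that limit. In these bulk libraries fewer cells of a type and less RNA per cell cannot be told apart. Of 15 adipocyte markers 6 had no read in any library (ADIPOQ, LEP, CIDEA, AQP7, PCK1 and THRSP), and 7 had reads but too few to be tested. The summed level of all 15 was 15.3 to 16.7 CPM in control and 14.2 to 16.4 CPM in ADP-CM, mostly from LIPE and CFD. LIPE, at 5.77 CPM in control and 3.76 CPM in ADP-CM, was lower past the limit (log2 fold change -0.62), a call lost with DESeq2. CFD, at 9.46 and 10.4 CPM, was not past it. The sum of 10 stromal markers was 61.5 to 68.5 CPM in control and 78.3 to 79.3 CPM in ADP-CM. That of 10 leukocyte markers was 8.42 to 9.74 CPM in control and 11.0 to 13.3 CPM in ADP-CM. Most of the stromal sum was COL1A1 (mean 62.3 CPM in control, 76.7 CPM in ADP-CM). Most of the leukocyte sum was CD68 (7.43 and 10.7 CPM). Both genes were higher past the limit, while COL3A1 and ITGAM were not. In either list 8 of the 10 markers had at most 10 reads in every library. The part of the stromal and leukocyte markers in the values below was not tested.

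The leptin receptor gene was nearly silent in RL95-2 cells, although the gene that starts beside it was well expressed. LEPR (GRCh37 chromosome 1, 65886335 to 66107242) and LEPROT (chromosome 1, 65886270 to 65901690) lie on the plus strand in the GENCODE annotation, and both begin in the same GC-rich stretch. In RefSeq, 1 of 2 LEPR promoter windows is identical to that of LEPROT, and the other starts 16 bases upstream. Of 6 coding LEPR transcripts in GENCODE, 3 start within LEPROT and the others beyond it. The sequence is shown because the first annotated start of each gene lies just downstream of it. It does not lie just before every LEPR transcript. Its capitals mark the letters GGGCGG, the GC box bound by SP1-like factors, searched on both strands. It is the RefSeq promoter (GRCh38.p14) up to the first start of either gene in GENCODE, and it matched GRCh37 exactly at chr1:65886085-65886269, plus strand.
LEPR and LEPROT upstream: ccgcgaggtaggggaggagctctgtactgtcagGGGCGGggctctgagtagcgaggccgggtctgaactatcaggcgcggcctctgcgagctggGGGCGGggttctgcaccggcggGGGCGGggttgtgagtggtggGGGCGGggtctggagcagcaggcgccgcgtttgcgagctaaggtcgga
These 185 bases hold 4 GC boxes, and the whole window of 250 bases before the LEPR start holds 6. Of 35093 RefSeq windows of that length, 42.6% hold at least 1 GC box. The window is 73.6% G and C, higher than 86.9% of the windows. It holds no TATAAA, which 10.7% of the windows have, and no CCAAT, which 32.0% have. It also holds no TTCNNNGAA, the site that STAT factors bind, found in 6.57% of the windows. The remaining motifs searched, CACGTG and CCGGAA, were not in it either and are in 6.34% and 14.5% of the windows. ADIPOR1, APPL1 and APPL2 also have promoters in the table, which makes 5 of the 8 genes, and ADIPOR2, CDH13 and LEPROTL1 were not matched.

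**Figure D1:**
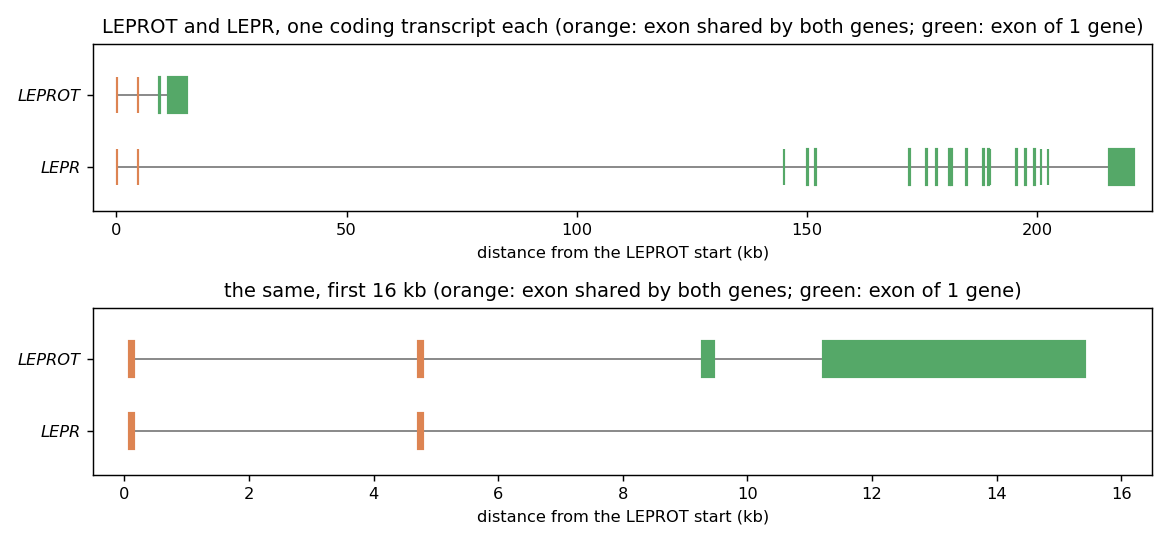
Exons of 1 coding transcript each of LEPROT and LEPR against the distance from the LEPROT start in kb, over the whole locus (top) and its first part (bottom), with shared exons in orange and others in green. The first 2 exons, of 73 and 76 bases, belong to both genes, and the next LEPR exon starts 145 kb from the LEPROT start.

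In the annotation the genes share 165 exonic bases, 1.45% of those of LEPR and 3.15% of those of LEPROT. HTSeq, with which the authors counted, leaves out reads that lie on 2 genes as ambiguous in its usual modes, so the reads below stem almost wholly from exons of 1 gene. In the order of the replicate numbers, LEPR had 31, 19 and 46 reads in control against 48, 30 and 37 in ADP-CM. LEPROT had 1903, 2070 and 1992 reads in control and 2308, 2248 and 2401 in ADP-CM. In every library LEPROT had at least 43.3 times the reads of LEPR, and at most 109 times. Per kilobase of annotated exon, the scale on which genes of different length can be compared, LEPROT stood at 22.7 ± 0.632 CPM per kb and LEPR at 0.168 ± 0.0688 in control (SD, n = 3). That is a 135-fold difference between the mean levels, and it was 131-fold in ADP-CM. Both folds are imprecise, because LEPR had only 19 to 48 reads in a library. The counts do not separate the long signaling form of LEPR from its short forms.

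LEPR did not differ detectably between the groups. Its level was 1.91, 1.13 and 2.69 CPM in control against 2.65, 1.64 and 2.01 CPM in ADP-CM, so the groups overlapped, and control replicates 2 and 3 were the lowest and the highest of all 6. The log2 fold change was 0.13 with a standard error of 0.23, a 95% interval of -0.33 to 0.60 and adjusted p = 0.691. Adjusted p here means the quasi-likelihood p of edgeR after Benjamini-Hochberg correction over all tested genes, and the limit for a call was 0.01. The sign was set by single libraries. It turned to -0.14 without control replicate 2 and to -0.07 without ADP-CM replicate 1, and was 0.47 without control replicate 3. The spread between the control libraries, 41.0% of the mean, was larger than the 17.7% that counting error alone gives at this number of reads, and it was 24.5% against 16.2% in ADP-CM. The interval of LEPR thus covers changes from a fall of 20.4% to a rise of 51.3%.

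LEPROT itself was slightly higher in ADP-CM, short of the limit. It measured 117, 123 and 116 CPM in control against 127, 123 and 131 CPM in ADP-CM. The groups met at a single point, where control replicate 2 and ADP-CM replicate 2 differed by less than 0.01 CPM. The log2 fold change was 0.09 with a standard error of 0.03, an increase of 6.79% with a 95% interval of 2.19% to 11.6%, and edgeR gave adjusted p = 0.0143. Without ADP-CM replicate 2 it was 0.00381, past the limit. Leaving out the other libraries gave 0.0107 to 0.0851, and the direction was the same each time.

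LEPROTL1 (GRCh37 chromosome 8, 29952924 to 30034724, plus strand), the paralog of LEPROT, did not differ detectably between the groups. It had 1667, 1729 and 1750 reads in control and 1942, 1947 and 1861 in ADP-CM. Scaled for library size these were 103, 102 and 102 CPM in control and 107, 106 and 101 CPM in ADP-CM, with ADP-CM replicate 3 below all the control libraries. The log2 fold change was 0.03 with a 95% interval of -0.03 to 0.10 (edgeR adjusted p = 0.462). The longest run of identical bases between LEPROT and LEPROTL1 transcripts was 39, under the read length of 50, so no read of full length fits both without a mismatch. In the annotation 4.69% of the exonic bases of LEPROTL1 are shared with DCTN6 on its own strand and 5.97% lie opposite MBOAT4, and the strand setting of the counting is not given in the sources used here.

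**Figure D2:**
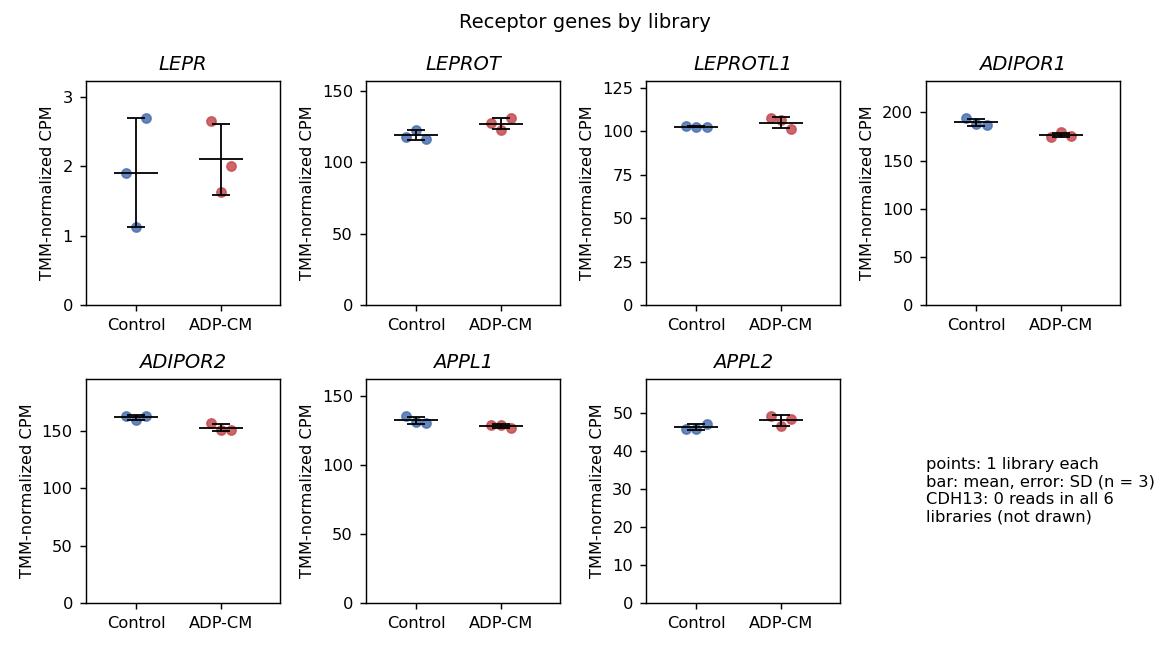
TMM-normalized CPM of the 7 genes with reads, each axis starting at 0, with 1 point per library and the mean ± SD of 3 libraries in black. The ADP-CM libraries lie below all control libraries for ADIPOR1 (175 to 180 against 187 to 194 CPM) and ADIPOR2 (151 to 157 against 159 to 163 CPM), and the LEPR libraries are spread over 1.13 to 2.69 CPM.

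Both adiponectin receptors of the PAQR family were among the more abundant transcripts of these cells, and both were slightly lower in ADP-CM, ADIPOR1 past the limit and ADIPOR2 not. ADIPOR1 (chromosome 1, 202909954 to 202927700, minus strand) had 3144, 3175 and 3205 reads in control and 3168, 3292 and 3223 in ADP-CM. After scaling it measured 194, 188 and 187 CPM in control against 175, 180 and 175 CPM in ADP-CM, with no overlap. It fell by 0.10 on the log2 scale with a standard error of 0.03, a change of -6.92% with a 95% interval of -10.3% to -3.37%, and edgeR gave adjusted p = 0.00160. ADIPOR1 was the only 1 of the 7 tested genes past the limit of 0.01, where 26.5% of the 12663 tested genes passed in either direction and 13% in the lower direction. The call was lost with DESeq2, without control replicate 1 and without ADP-CM replicate 1. Adjusted p was 0.0101 with DESeq2, which called 0 of the receptor genes and 1983 of all genes at 0.01. At an unadjusted p under 0.05 DESeq2 had 3 receptor genes, and its share over all genes at that limit was not computed. edgeR also had 3 at that limit, where it had 45% of all tested genes. In edgeR adjusted p was 0.0216 without control replicate 1 and 0.0157 without ADP-CM replicate 1, and the fall was 0.09 to 0.12 on the log2 scale whichever library was left out.

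ADIPOR2 (chromosome 12, 1797740 to 1897840, plus strand) had 2643, 2691 and 2786 reads in control and 2835, 2769 and 2775 in ADP-CM. These gave 163, 159 and 163 CPM in control and 157, 151 and 151 CPM in ADP-CM, again with no overlap. The log2 fold change was -0.08 with a 95% interval of -0.14 to -0.02 and adjusted p = 0.0187 in edgeR, short of the limit. Its value was negative whichever library was left out, from -0.10 to -0.07. The mean number of raw reads of both genes was no lower in ADP-CM than in control, and the difference appears once the larger ADP-CM libraries are scaled. With library sizes alone in place of TMM, edgeR gave ADIPOR1 adjusted p = 0.0021 and ADIPOR2 0.0235.

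No difference in the proportion of the receptors was detected. ADIPOR1 had 1.19, 1.18 and 1.15 reads for each read of ADIPOR2 in control against 1.12, 1.19 and 1.16 in ADP-CM, and these ratios overlapped (difference -0.02 on the log2 scale, two-sided exact permutation p = 0.6). With 3 libraries against 3 the smallest p this test can give is 0.1. Per kilobase of exon ADIPOR1 stood 2.20-fold above ADIPOR2 in control, at 61.0 ± 1.13 against 27.7 ± 0.352 CPM per kb (SD, n = 3). Their transcripts share no run of identical bases longer than 11, so their reads are not confused.

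CDH13, the T-cadherin gene (chromosome 16, 82660570 to 83834245, plus strand), had 0 reads in each of the 6 libraries. A count of 0 allows up to 3 reads, which is 0.175 to 0.185 CPM in a control library and 0.163 to 0.166 CPM in an ADP-CM library, for counting error only. In the annotation 21.4% of its exonic bases lie opposite an antisense RNA gene. The leptin gene LEP and the adiponectin gene ADIPOQ also had 0 reads in all libraries, so neither ligand was detected in the RNA of the cells themselves. Of the other cadherins CDH3 and CDH1 were abundant, while 10 of 18 had no read in any library. Per kilobase of exon CDH3, or P-cadherin, was at least 2504-fold and CDH1, or E-cadherin, at least 1647-fold above the limit for CDH13 in control, taking the mean limit of 3 reads per library.

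The adaptors APPL1 and APPL2 were both present and did not differ detectably between the groups. APPL1 (chromosome 3, 57261754 to 57312133, plus strand) had 2201, 2221 and 2237 reads in control and 2338, 2375 and 2330 in ADP-CM, which gave 136, 132 and 131 CPM against 129, 130 and 127 CPM. The APPL1 groups did not overlap, but the log2 fold change of -0.05 had a 95% interval of -0.11 to 0.01 and adjusted p = 0.235 (edgeR). APPL2 (chromosome 12, 105567075 to 105629981, minus strand) had 741, 772 and 804 reads in control and 889, 852 and 888 in ADP-CM. That was 45.7, 45.7 and 47.0 CPM against 49.1, 46.5 and 48.3 CPM, an overlap through ADP-CM replicate 2, with a log2 fold change of 0.06, a 95% interval of -0.04 to 0.15 and adjusted p = 0.368 (edgeR).
The adaptors thus had opposite signs, and the reads of APPL1 for each read of APPL2 were 2.97, 2.88 and 2.78 in control and 2.63, 2.79 and 2.62 in ADP-CM. The difference of this ratio was -0.10 on the log2 scale, with an overlap and p = 0.2 in the two-sided exact permutation test. Over the 4 ratios tested in this way (LEPR to LEPROT, LEPROT to LEPROTL1, ADIPOR1 to ADIPOR2, APPL1 to APPL2) the lowest adjusted exact p was 0.6. APPL1 and APPL2 transcripts share no identical run longer than 14 bases. In the annotation 3.94% of the exonic bases of APPL1 lie opposite ASB14.

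**Figure D3:**
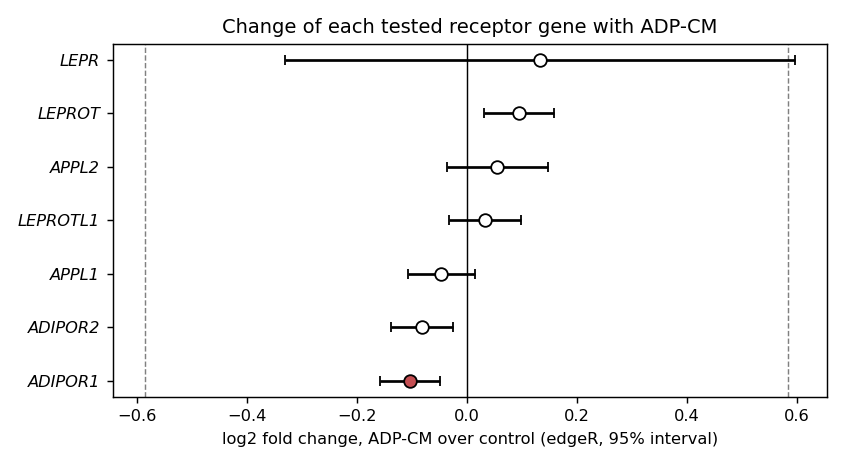
Log2 fold change of the 7 tested genes, ADP-CM over control, with 95% intervals from edgeR's quasi-likelihood fit. The filled point, ADIPOR1, is past the limit, and the dashed lines mark a 1.5-fold change, which only the interval of LEPR reached.

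Together the changes were small. The median size of the log2 fold change was 0.08 over the 7 tested receptor genes and 0.11 over all 12663 tested genes. Groups did not overlap for 3 of the 7 (ADIPOR1, ADIPOR2 and APPL1, all lower in ADP-CM). The groups did not overlap for 45.5% of all tested genes. As shares of all tested genes, 22.7% were higher and 22.8% lower in ADP-CM without overlap. For 6 of the 7 the 95% interval lay within a 1.5-fold change in either direction, and the exception was LEPR. None was past 1.5-fold together with the limit on adjusted p, a pair of cutoffs taken from the study, while 2.27% of all tested genes were. At an unadjusted p under 0.05 edgeR had 3 of the 7 (LEPROT, ADIPOR1 and ADIPOR2) and 45% of all tested genes.

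In control the order of levels per kilobase of exon was ADIPOR1 (61.0 ± 1.13 CPM per kb), ADIPOR2 (27.7 ± 0.352), LEPROT (22.7 ± 0.632), LEPROTL1 (18.9 ± 0.0415), APPL1 (17.7 ± 0.348), APPL2 (9.07 ± 0.150) and LEPR (0.168 ± 0.0688), each SD with n = 3, with CDH13 at 0 reads. No neighbours in this order overlapped between libraries, but the annotated length matters as well. With the longest transcript in place of all exons LEPROTL1 came to 32.4 and LEPROT to 25.7 CPM per kb, so the order of LEPROT and LEPROTL1 reverses. Of 21395 genes with a length, 96.8% were below ADIPOR1, 91.3% below ADIPOR2, 89.3% below LEPROT and 42.5% below LEPR.

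LEPR ranked 7th of the 11 gp130-related receptors, LEPR included, by level per kilobase in control. Among the gp130-related receptors with reads, IL27RA (21.9 ± 0.914 CPM per kb in control), IL6ST (20.7 ± 0.399), OSMR (11.0 ± 0.193) and IL6R (3.71 ± 0.0997) lay far above it (SD, n = 3). IL6ST, the gp130 subunit that IL6, LIF and oncostatin M receptors share, stood 123-fold above LEPR per kilobase, and LIFR, the LIF receptor, 2.33-fold. IL11RA (0.193 ± 0.00647 CPM per kb) did not differ from LEPR beyond the spread of LEPR. Below LEPR were CSF3R, the G-CSF receptor, at 0.00935 ± 0.00306 CPM per kb (SD, n = 3), and CNTFR, IL12RB2 and IL31RA, each listed at 0 reads. Of the 6 relatives tested for change, LIFR (log2 fold change 0.61) and OSMR (0.18) rose and IL6ST fell by 0.15, with adjusted p of 8.28e-05 in edgeR for LIFR and lower for the others. These 3 were 50% of the 6, where 26.5% of all tested genes passed. IL11RA had a log2 fold change of 0.77 and adjusted p = 0.0143 in edgeR, on at most 34 reads in any library. The difference between the change of LEPR and those of its relatives was not tested.

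**Figure D4:**
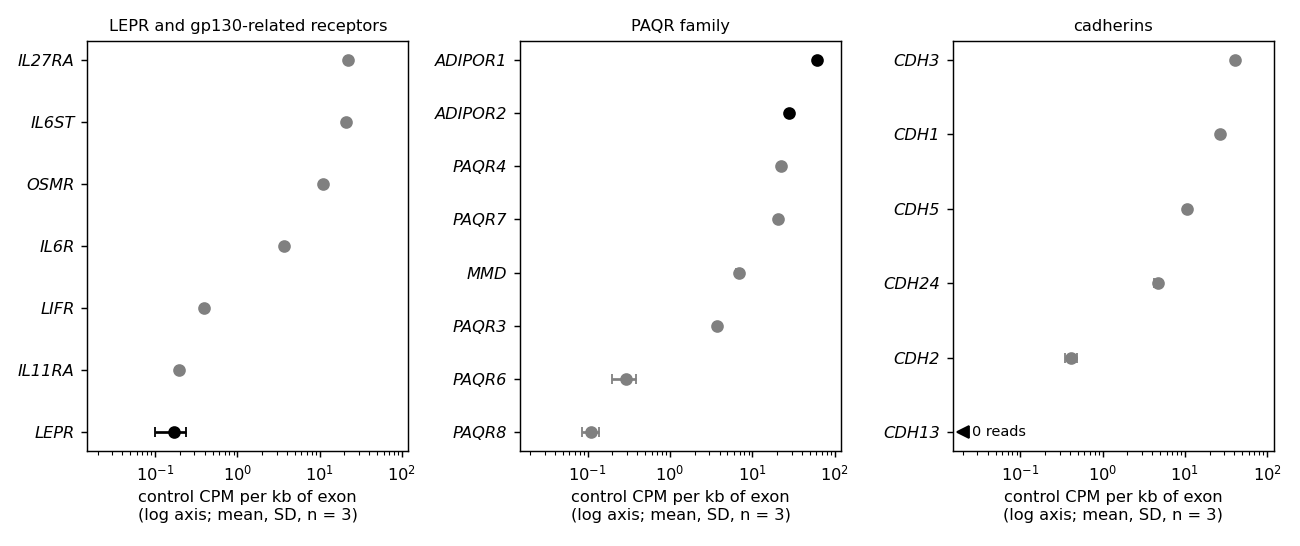
Level in control, as CPM per kb of annotated exon on a log axis (mean ± SD, n = 3), of LEPR among gp130-related receptors, of ADIPOR1 and ADIPOR2 among the PAQR family and of CDH13 among cadherins, with the genes of interest in black and relatives above 0.05 CPM per kb in grey. LEPR, at 0.168, is the lowest in its panel, where 4 relatives at or under 0.05 are not drawn, ADIPOR1 and ADIPOR2 are the highest of their family, and CDH13 has 0 reads.

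ADIPOR1 and ADIPOR2 were the highest of the 11 PAQR genes in control, before PAQR4 (22.1 ± 0.538 CPM per kb) and PAQR7 (20.5 ± 0.432), a membrane progestin receptor (SD, n = 3). Of the 6 other PAQR genes tested, 2 rose and 0 fell past the limit with edgeR. These were 33.3% of the 6, against 26.5% of all tested genes in either direction and 13.5% upward. At an unadjusted p under 0.05 edgeR had 2 higher and 1 lower, where 22.6% of all tested genes were higher and 22.4% lower. DESeq2 called 1 higher and 0 lower, where it called 1030 of all genes higher and 953 lower. PAQR7 rose from 66.6 ± 1.40 to 80.6 ± 2.00 CPM (SD, n = 3 each), or 0.28 on the log2 scale (edgeR adjusted p = 1.13e-08). PAQR6 had 15, 14 and 8 reads in control and 27, 24 and 37 in ADP-CM, a difference of 1.11 on the log2 scale. The call of PAQR6 was lost without control replicate 3 (0.87), without ADP-CM replicate 3 (0.92) and with DESeq2 (adjusted p = 0.0342). PAQR4 (log2 fold change -0.12) and PAQR8 (0.27) did not pass.

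The cadherins were mostly silent, with 10 of 18 other than CDH13 without a read and 5 tested. CDH1 fell from 163 to 122 CPM (log2 fold change -0.42) and CDH3 from 260 to 240 CPM (-0.12), with adjusted p of 1.14e-18 and 0.000149 in edgeR. These 2 were 40% of the 5, where 26.5% of all tested genes passed in either direction and 13% downward. CDH5, the cadherin of endothelium, had a log2 fold change of -0.12 and CDH24 of 0.16, and neither passed.

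The genes that act with these receptors were taken from 7 lists of named genes. Over these lists 22 genes were past the limit, 14 higher and 8 lower in ADP-CM, and 4 of them (SOCS3, SOCS1, LIFR and PAQR6) were also past 1.5-fold. They were 27.8% of the 79 genes tested over the lists, close to the 26.5% of all tested genes. Of the 16 adipokine ligands 9 had no read and 3 were tested. Of these, APLN, which encodes the peptide apelin, rose by 0.27 on the log2 scale, from 41.1 ± 2.03 to 49.5 ± 0.649 CPM (SD, n = 3 each). NAMPT, an enzyme of NAD synthesis that is also secreted, had 0.10 and C1QTNF6, a relative of adiponectin, had 0.06, and neither passed.

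Downstream of LEPR, 3 of 21 tested genes rose, 2 fell and 16 did not pass, with a median log2 fold change of -0.03 where all tested genes had -0.002. The 5 past the limit were 23.8% of the list, against 26.5% of all tested genes. JAK2, the kinase bound to LEPR, measured 21.9 ± 1.60 CPM in control and 22.0 ± 1.40 CPM in ADP-CM (SD, n = 3 each, edgeR adjusted p = 0.932). Of the feedback inhibitors, SOCS3 and SOCS1 passed, in opposite directions, and CISH (log2 fold change 0.19), PTPN1 (-0.06) and PTPN2 (-0.09) did not. SOCS3 had a log2 fold change of 0.59, while SOCS1 had -1.16, at 1.35 ± 0.0639 CPM in control against 0.602 ± 0.110 CPM in ADP-CM (SD, n = 3 each, edgeR adjusted p = 0.00191). The call of SOCS1, on 9 to 24 reads, was lost without control replicate 2 (0.0124) and without ADP-CM replicate 3 (0.0137). The adaptors SHC1 (log2 fold change 0.32) and IRS1 (0.23) were the other genes that rose.

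Downstream of the adiponectin receptors, 4 of 22 tested genes rose, 0 fell and 18 did not pass with edgeR, and the median was 0.02 on the log2 scale. The 4 were 18.2% of the list, against 26.5% of all tested genes past the limit in either direction and 13.5% upward. At an unadjusted p under 0.05 edgeR had 5 higher and 6 lower, where 22.6% of all tested genes were higher and 22.4% lower. At the limit on adjusted p DESeq2 called 2 higher and 0 lower, where it called 1030 of all genes higher and 953 lower. Without control replicate 3 edgeR also called 2. TBC1D4, an AKT and AMPK substrate that controls glucose transporter traffic, rose by 0.35 on the log2 scale, from 56.0 ± 4.21 to 71.6 ± 0.844 CPM (SD, n = 3 each). The AMPK subunits PRKAG1 (0.18) and PRKAB2 (0.15) and CAB39 (0.08), a partner of the AMPK kinase LKB1, also rose. The calls of both PRKAB2 and CAB39 were lost with DESeq2 (adjusted p = 0.0796 and 0.0119). They were also lost without control replicate 3 or ADP-CM replicate 1, that of PRKAB2 without control replicate 2 or ADP-CM replicate 3, and that of CAB39 without control replicate 1 or ADP-CM replicate 2. PRKAA1, a catalytic AMPK subunit, measured 153 ± 0.971 CPM in control and 158 ± 1.63 CPM in ADP-CM (SD, n = 3 each) and did not pass (edgeR adjusted p = 0.168).

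Of the 16 tested partners of APPL1 and APPL2 on endosomes, 2 rose, 3 fell and 11 did not pass, and the median was -0.03 on the log2 scale. The 5 past the limit were 31.2% of the list, against 26.5% of all tested genes. RAB31 (log2 fold change 0.43), a small GTPase that binds APPL2, and RABEP1 (0.18), a RAB5 effector, rose. RAB5B (-0.30) and RAB21 (-0.18), GTPases of early endosomes, and the sorting receptor SORT1 (-0.36) fell. In edgeR all 5 were still past the limit whichever library was left out. AKT1, a kinase that APPL1 binds, measured 213 ± 4.26 and 210 ± 2.80 CPM (SD, n = 3 each).

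**Figure D5:**
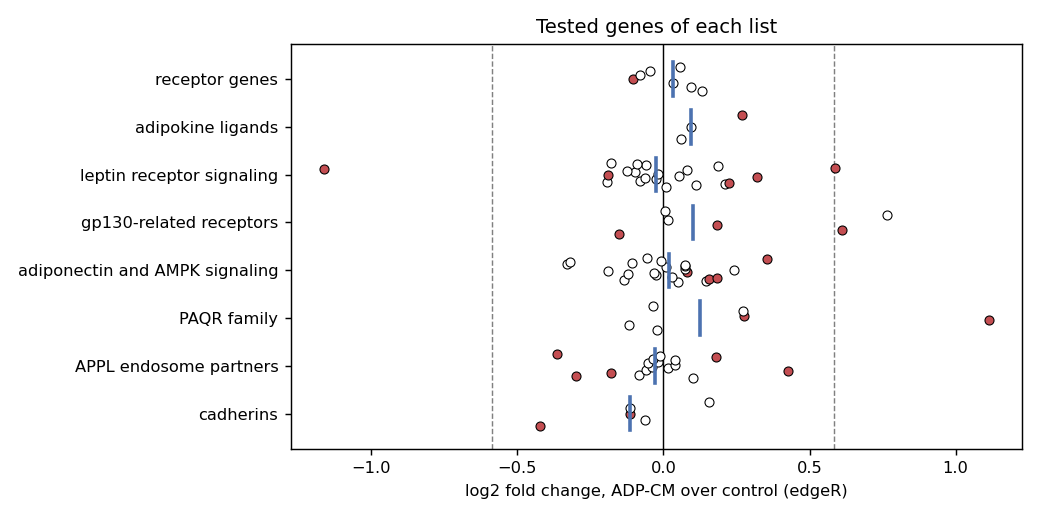
Log2 fold change, ADP-CM over control, of the 7 tested receptor genes and the tested genes of 7 lists, with 1 point per gene. Filled points are past the limit on adjusted p, blue bars are medians and dashed lines mark a 1.5-fold change, and the 7 receptor genes lie between -0.10 and 0.13.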

How the data were processed

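The authors made stranded poly(A) libraries, read them as 50 bp single reads, aligned them to hg19 with TopHat2 and deposited raw counts per RefSeq gene from HTSeq. Versions and the strand setting are not given in the sources used here. The HTSeq summary lines, which name no gene, were kept out of library sizes: 10.2% to 11.6% of reads lay on no gene, 0.709% to 0.721% were ambiguous and 20.5% to 20.8% had no unique alignment.

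From these counts, edgeR 4.0.16 in R 4.3.3 (TMM, filterByExpr, quasi-likelihood test, Benjamini-Hochberg over 12663 genes) compared all 3 control with all 3 ADP-CM libraries. The limit for a call was 0.01 on adjusted p. edgeR and DESeq2 1.42.0 were first tested on simulated data. Levels were divided by exon length in GENCODE release 44 on GRCh37, which may differ from the RefSeq models counted. Of the gene symbols, 19137 matched directly, 2258 by a synonym and 1833 not at all. Ratios were compared by exact permutation. Alternatives were other scalings, filters, limits, DESeq2, a replicate block and each library left out.

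The genes and lists were chosen with earlier results of these data known. The text names all 8 genes, LEP and ADIPOQ, up to 4 genes a list by lowest p (markers as far as a result turns on them), and the 5 genes most correlated with the receptor gene that has the largest log2 fold change. Other names (SOCS1, RAB21, JAK2, CISH, PTPN1, PTPN2, PRKAA1, AKT1, markers at 0, relatives shown by level) were chosen after their values were seen. One gene of the leptin receptor signaling list is not reported here by name.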

Additional observations from a re-analysis of the deposited data

Results flagged for a closer look

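Reads outside the gene counts differed between the groups. Those that lay on no annotated gene made up 11.5% ± 0.0331 of all reads in ADP-CM and 10.3% ± 0.0528 in control (SD, n = 3 each), and those without a unique alignment 20.7% ± 0.0560 and 20.5% ± 0.0642, with no overlap between the groups in either case. Groups of 3 libraries were not tested for outlying libraries.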

How the results depend on the processing

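Of all genes, 3357 passed with edgeR, 1983 with DESeq2 and 288 with a fold change of 1.5 required as well. Of the receptor genes, 1 passed with edgeR, 0 with DESeq2, 0 with the fold change of 1.5 and 3 at an adjusted p-value of 0.05, where LEPROT (log2 fold change 0.095) and ADIPOR2 (-0.082) joined ADIPOR1 and 36.7% of all genes passed. ADIPOR1 had a log2 fold change of -0.10 with DESeq2. Leaving out each library in turn gave 0 to 2 receptor genes. It gave log2 fold changes of -0.14 to 0.47 for LEPR, 0.074 to 0.12 for LEPROT, -0.12 to -0.089 for ADIPOR1, -0.039 to 0.068 for JAK2, -0.48 to 0.20 for COL3A1, and differences of the log2 ratio of -0.26 to 0.41 for LEPR to LEPROT and -0.042 to 0.0024 for ADIPOR1 to ADIPOR2. The 22 genes of the 7 lists became 4 with the fold change of 1.5. With the longest transcript as length, levels in control were 90.0 CPM per kb for ADIPOR1, 40.7 for ADIPOR2, 32.4 for LEPROTL1, 25.7 for LEPROT, 21.9 for APPL1 and 14.4 for APPL2. LEPR came to 0.232 CPM per kb in this way. Same-numbered libraries of the groups deviated together only weakly (correlations 0.06, 0.03 and 0.09 across genes), so the numbers were not taken to pair them, though every library correlated best with its own number. With the replicate block 3502 genes and 1 receptor gene passed, and no call of a receptor gene changed. CDH13, at 0 reads in every library, could not be tested, and LEPR rests on 96 reads in control and 115 in ADP-CM.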

Other observations

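CDH5, the cadherin of endothelial cells, had 1017 to 1127 reads in the control libraries and 985 to 1124 in ADP-CM, or 63.5 ± 2.94 and 58.6 ± 3.67 CPM (SD, n = 3 each), in a line labelled as endometrial carcinoma. Of the other 7 endothelial markers KDR, TIE1 and EMCN had no read, PECAM1 and CLDN5 had at most 1 in any library, VWF at most 8 and TEK at most 11.

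The 5 genes whose log2 CPM followed that of LEPR most closely over the 6 libraries were ZNF680, CCDC144NL, PRDM6, PRDM4 and SLC30A5, with Pearson's r from 0.965 to 0.983 among 12136 genes. Their log2 fold changes with ADP-CM were 0.005 to 0.11. Of the 12136 genes, 13 had r over 0.95. The 5 genes were picked as the highest of these, and whether such values exceed chance was not tested. The points are the same 6 libraries for every gene, and LEPR has few reads.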
